A study of Mus musculus with 4 samples.

Results

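The genes of the MHC class II antigen presentation pathway were described in RNA from mouse lung tumour cells. The 10 genes were chosen by symbol: H2-Aa, H2-Ab1, H2-Eb1, Cd74, Ciita, H2-DMa, H2-DMb1, H2-DMb2, H2-Oa and H2-Ob. All 10 were among the 21420 genes of the deposited expression table. Mice of the KL group carried KrasLSL-G12D/+ and Lkb1fl/fl, of which Cre recombinase switches on the first and deletes the second. Mice of the KL25 group carried the same alleles and were also Usp25-/-, so that they lacked the deubiquitinase Usp25. Both groups received intranasal Ad-Cre, an adenovirus that delivers Cre, and were taken 10 weeks later. Each group had 2 libraries from 2 mice, per the design text. Cells dissociated from the tumours had been incubated with magnetic beads against CD45, the surface protein of leukocytes, and are labelled CD45-. Age, strain and the promoter that drives Cre are not stated in the labels.

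MHC class II molecules display peptides from endocytosed proteins to CD4+ T cells. In each heterodimer an alpha and a beta chain assemble on the invariant chain, which fills the peptide groove until proteases trim it to a short fragment. H2-DM then exchanges that fragment for peptides, and H2-O restrains H2-DM, mainly in B cells. The coactivator CIITA binds no DNA itself and switches the genes on through the factors RFX, CREB and NF-Y, which sit on the X and Y boxes of their promoters. In lung, dendritic cells, B cells and macrophages carry class II molecules, and alveolar type 2 cells also do so.

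The X and Y boxes are shown because the promoter stretches hold the elements through which these genes are known to be switched on together. Sequences are from RefSeq promoter windows of GRCm38.p6, which reach from 250 bases before the gene start to 50 after it, and 7 of the 10 genes had an entry (H2-Ab1, Cd74 and Ciita had none). The capitals mark GATTGG, the core of the Y box, and before it the X box, found by its core GCAAC or its end ATGATGC, which do not overlap each other.
H2-Aa, chr17:34287857-34287916, minus strand: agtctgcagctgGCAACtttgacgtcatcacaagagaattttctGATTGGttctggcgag
H2-Eb1, chr17:34305763-34305822, plus strand: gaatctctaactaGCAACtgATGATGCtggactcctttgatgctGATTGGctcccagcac
H2-DMb1, chr17:34153085-34153144, plus strand: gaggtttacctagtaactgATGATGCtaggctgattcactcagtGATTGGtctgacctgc
H2-DMb2, chr17:34145114-34145173, plus strand: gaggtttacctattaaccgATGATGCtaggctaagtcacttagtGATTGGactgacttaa
H2-Oa, chr17:34092291-34092350, plus strand: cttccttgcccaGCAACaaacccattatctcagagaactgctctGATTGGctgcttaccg
H2-Ob, chr17:34238803-34238862, plus strand: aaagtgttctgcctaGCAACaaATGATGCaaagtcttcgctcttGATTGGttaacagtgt

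In these 6 promoters the nearest X match ended 15 to 27 bases before the Y match. An X match 5 to 40 bases before a Y match on the gene's strand was present in 105 of 32851 promoter windows, or 0.32%. On either strand GATTGG was present in 16.1% of windows, GCAAC in 35.2% and ATGATGC in 2.46%. Neither of the 2 windows of H2-DMa held the pair. The patterns were chosen after the windows had been seen, and a match is a description of letters only.

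The genotype and the libraries were checked first. Levels are in FPKM, fragments scaled to transcript length and library size, and pairs of values give replicate 1 first. Usp25 was at 2.65 and 1.71 FPKM in KL25 and at 38.5 and 16.6 FPKM in KL. Stk11, which encodes Lkb1, was at 16.9 to 23.9 FPKM. KL replicate 1 stood apart: across 12476 genes its correlation with the other libraries was 0.874 to 0.885, against 0.933 to 0.967 among the others. It was also the only library with signal for 2496 genes, against 147 to 451 genes for each of the others. Relative depth, read from the authors' size factors, came to 0.853 and 0.823 for KL25 against 1.30 and 1.09 for KL. Ptprc, which encodes CD45 itself, was at 43.3 to 123 FPKM in these cells labelled CD45-. These are whole preparations, in which more cells of a type and more RNA per cell cannot be told apart.

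For 8 of the class II genes, all except H2-Oa and H2-Ob, levels differed by a larger factor between the KL libraries than between the group means. The 10 genes together took 0.219% of all FPKM in KL replicate 1 and 0.977% in KL replicate 2, with the KL25 shares of 0.436% and 0.630% lying between them. In 7 of the 10 genes the libraries ran in 1 order from low to high: KL replicate 1, KL25 replicate 1, KL25 replicate 2, KL replicate 2. That order was found in 9.52% of all genes tested. Both KL25 values lay inside the KL range in the same 7 genes, against 26.7% of all genes tested.

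**Figure D1:**
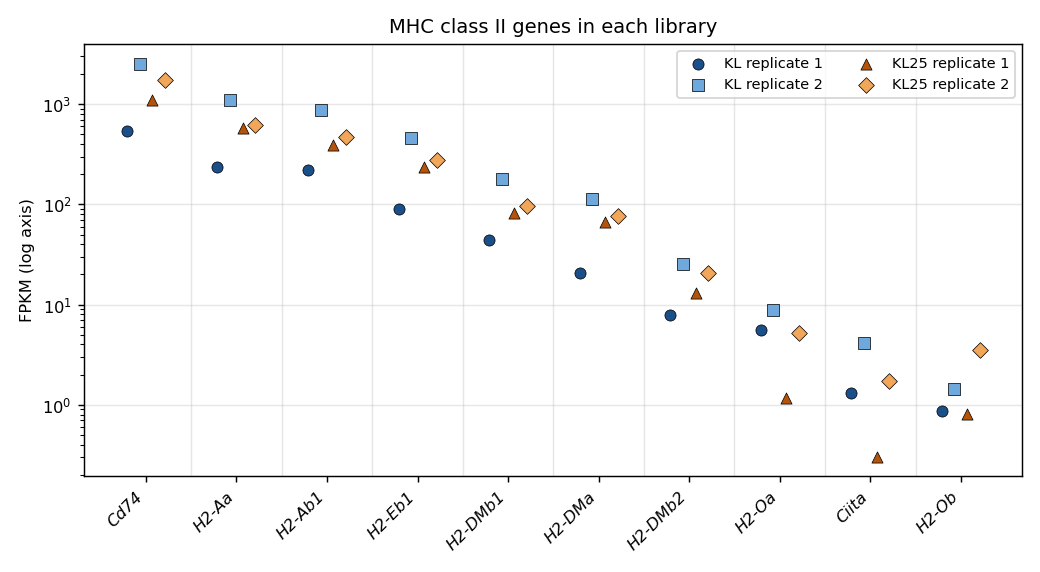
Level of each class II gene in each library, in FPKM on a log axis; each point is 1 library. From Cd74 to H2-DMb2 the dark blue circle (KL replicate 1) is lowest and the light blue square (KL replicate 2) highest, with both KL25 points between them; H2-Oa, Ciita and H2-Ob are ordered differently.

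The surface chains and the invariant chain made up 93.1% to 93.8% of the class II FPKM of a library. Cd74, which encodes the invariant chain, was the most abundant of the 10 in every library, at 1096 and 1742 FPKM in KL25 and at 540 and 2540 FPKM in KL. It was the transcript of rank 135 by FPKM in KL replicate 1 and of rank 18 in KL replicate 2. H2-Aa, the alpha chain of the I-A molecule, was at 576 and 623 FPKM in KL25 and at 238 and 1113 FPKM in KL. Its KL values thus differed 4.68-fold and its KL25 values 1.08-fold, so that the KL range enclosed both KL25 values. H2-Ab1, the beta chain that pairs with H2-Aa, was at 387 and 472 FPKM in KL25 and at 221 and 880 FPKM in KL. H2-Eb1, the beta chain of the I-E molecule, was at 238 and 275 FPKM in KL25 and at 91.0 and 460 FPKM in KL. For these 4 genes KL replicate 1 was the low library and KL replicate 2 the high one.

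The mean levels of these 4 genes were close in both groups next to the spread within KL. H2-Aa averaged 599 ± 33.2 FPKM over KL25 against 675 ± 619 FPKM over KL (mean ± SD, n = 2 in both). H2-Ab1 was at 430 ± 60.2 and 551 ± 466 FPKM, H2-Eb1 at 256 ± 25.9 and 276 ± 261 FPKM, and Cd74 at 1419 ± 456 and 1540 ± 1415 FPKM. In each the SD within KL exceeded the difference between the means.

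The genes of H2-DM, which loads peptides, had the same order of libraries as the surface chains. H2-DMa, the alpha chain, was at 67.2 and 76.4 FPKM in KL25 and at 20.9 and 114 FPKM in KL. Its KL libraries differed 5.48-fold, the widest KL ratio of the 10 genes. H2-DMb1, the main beta chain partner, was at 82.4 and 97.0 FPKM in KL25 and at 43.95 and 180 FPKM in KL. H2-DMb2, a second beta chain gene, lay lower, at 13.0 and 20.5 FPKM in KL25 and at 7.91 and 25.7 FPKM in KL. H2-DMb1 and H2-DMb2 are close paralogs, and how the authors' counting treated reads that match both is not known here.

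Ciita, the coactivator gene, was low and had its lowest value in another library. It was at 0.303 and 1.72 FPKM in KL25 and at 1.32 and 4.101 FPKM in KL. KL25 replicate 1 was therefore the low library for Ciita, while its H2-Aa was 2.42-fold that of KL replicate 1. The groups overlapped, because KL25 replicate 2 lay above KL replicate 1. Its mean normalized count, an average over the 4 libraries in the authors' deposited table, was 58.7, against 21135 for Cd74.

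The H2-O genes differed from the rest and from each other. H2-Oa, the alpha chain, was at 1.17 and 5.24 FPKM in KL25 and at 5.61 and 8.77 FPKM in KL. Both KL25 values were below both KL values, as in 15.0% of all genes tested, and H2-Oa was the only one of the 10 whose groups did not overlap. In 0 of the 10 were both KL25 values above both KL values, against 19.1% of all genes tested. H2-Ob, the beta chain, was at 0.810 and 3.55 FPKM in KL25 and at 0.872 and 1.42 FPKM in KL. It was highest in KL25 replicate 2, and the KL25 range enclosed both KL values, as in 7.67% of all genes tested. The mean normalized counts were 61.7 for H2-Oa and 49.97 for H2-Ob in the authors' deposited table, so both rest on few reads.

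No class II gene passed the test of KL25 against KL. The test was limma on log2(FPKM + 1) over 12476 genes, with Benjamini-Hochberg adjusted p-values and a threshold of 0.05. All 10 genes passed the level filter of a group mean of 1 FPKM or more. 0 of 10 passed in either direction, and 0% of all genes tested were called higher and 0% lower. Usp25, the deleted gene, did not pass in limma either (log2 fold change -3.07, SE 0.47, adjusted p = 0.942). In the authors' deposited table its adjusted p was 0.017. The limma result therefore cannot show that a class II gene was unchanged. Before adjustment 0 of the 10 had a p below 0.05, against 2.16% of all genes in the higher and 1.07% in the lower direction. By the adjusted p of the authors' deposited table, none of the 10 genes was below an adjusted p of 0.05, where 0.088% of 14770 genes were higher and 0.0339% lower. Its unadjusted p was below 0.05 for 0 of the 10, against 4.09% of its genes. A two-sided exact permutation test of 2 against 2 libraries cannot go below p = 0.333.

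The fitted changes ran from -1.13 to 0.53 on the log2 scale. H2-Aa had a log2 fold change of 0.22 (SE 0.77, adjusted p = 0.973) and H2-Ab1 one of -0.05 (SE 0.71, adjusted p = 0.995). H2-Eb1 was at 0.32 (SE 0.79) and Cd74 at 0.24 (SE 0.81). H2-DMa was at 0.53 (SE 0.80), H2-DMb1 at 0.0040 (SE 0.69) and H2-DMb2 at 0.17 (SE 0.59). H2-Oa was at -1.13 (SE 0.57, adjusted p = 0.942) and Ciita at -0.87 (SE 0.58, adjusted p = 0.942). The values of these low genes moved with the pseudocount: with 0.1 in place of 1, H2-Oa was at -1.45 and Ciita at -1.51, and with 5 they were at -0.61 and -0.35. H2-Ob was at 0.43 (SE 0.54). The median of the 10 was 0.19, against 0.03 over all genes tested, and 7 of the 10 were positive, against 53.1% of all genes tested. On mean FPKM, by contrast, 8 of the 10 were lower in KL25. For 5 genes (H2-Aa, H2-Eb1, Cd74, H2-DMb1 and H2-DMb2) the sign thus differed between mean FPKM and the log2 scale. The authors' deposited table gives 8 of the 10 a negative log2 fold change, with a median of -0.17.

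The direction depended on which library was left out, and most on which KL library was kept. Without KL25 replicate 1 the median of the 10 was 0.35, with 8 positive. Without KL25 replicate 2 it was -0.13, with 7 negative. Without KL replicate 1 the log2 fold change was -0.89 for H2-Aa, -0.85 for H2-Eb1, -0.88 for Cd74 and -0.67 for H2-DMa, and 9 of the 10 genes were negative with a median of -0.89. Without KL replicate 2 the same genes were at 1.33, 1.48, 1.36 and 1.73, and 8 of the 10 were positive with a median of 0.98. Without KL replicate 1, 5 of the 10 were lower in KL25 at an unadjusted p below 0.05 in limma, against 2.47% of all genes tested. Without KL replicate 2, 5 of the 10 were higher at that level, against 9.43% of all genes tested. In both fits 0 passed after adjustment. H2-Oa and Ciita were negative in all 4 fits that left out 1 library, from -1.89 to -0.37 for H2-Oa and from -1.44 to -0.30 for Ciita. H2-Ob was at -0.23 without KL25 replicate 2 and between 0.25 and 1.10 in the other such fits.

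**Figure D2:**
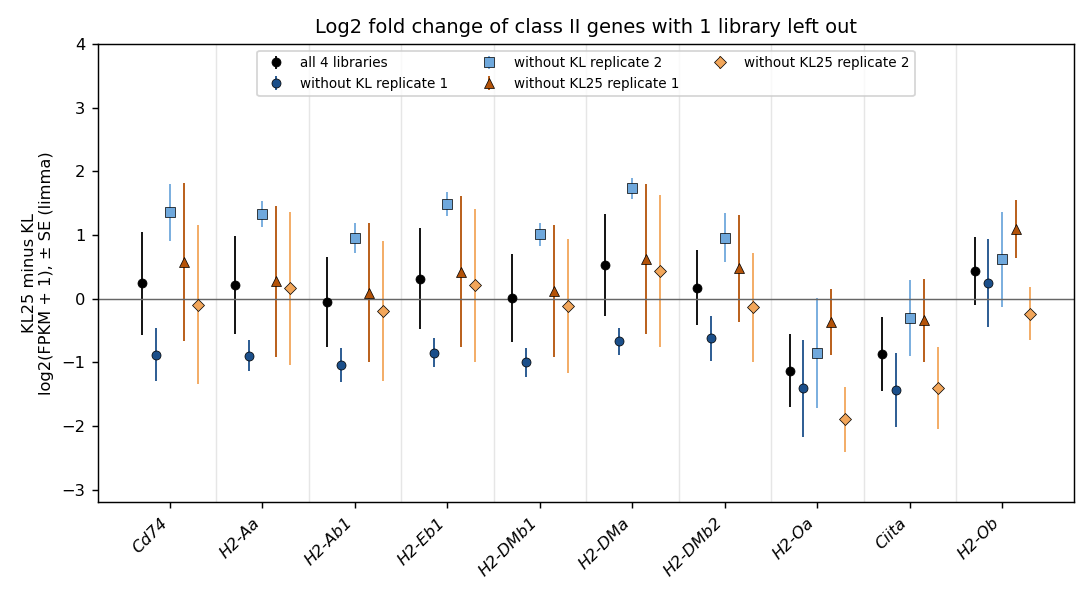
Log2 fold change of KL25 against KL for each class II gene on log2(FPKM + 1), with its limma standard error, from all 4 libraries and with 1 library left out. For Cd74 through H2-DMb2 the values without KL replicate 1 are below 0 and those without KL replicate 2 above 0, while H2-Oa and Ciita are below 0 throughout.

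Within a library the proportions of the abundant class II transcripts were much steadier than their levels. The ratio of H2-DMb1 to H2-Ab1 was 0.213 and 0.205 in KL25 and 0.199 and 0.204 in KL. That ratio varied 1.07-fold over libraries in which H2-Ab1 itself varied 3.98-fold. The ratio of H2-Aa to H2-Ab1, the chains of one heterodimer, was 1.49 and 1.32 in KL25 and 1.07 and 1.26 in KL. The ratio of Cd74 to H2-Ab1 was 2.83 and 3.69 in KL25 and 2.44 and 2.88 in KL, so that invariant chain transcripts exceeded those of the beta chain in every library. The ratio of Ciita to H2-Ab1 varied 7.62-fold, and its lowest value was in KL25 replicate 1.

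The genes that process the invariant chain and endocytosed proteins had the same low library as most class II genes. All 5 listed genes were lowest in KL replicate 1 and highest in KL replicate 2, as were 15.5% of all genes tested. Ctss, which encodes cathepsin S and makes the final cut of the invariant chain, was at 3654 and 3629 FPKM in KL25 and at 1448 and 4079 FPKM in KL. Ctsf, another cathepsin of this step, was at 9.26 and 12.6 FPKM in KL25 and at 3.89 and 18.0 FPKM in KL. Lgmn, an asparagine endopeptidase, differed 3.02-fold between the KL libraries, Ifi30, a lysosomal thiol reductase, 2.17-fold, and Ctsl, which encodes cathepsin L, 1.54-fold. 0 of the 5 passed in limma, and their median log2 fold change was 0.23.

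Most genes of the interferon gamma arm, through which CIITA can be induced, were highest in the library with the lowest summed class II level. This was so for 7 of the 9 listed genes, in KL replicate 1, and Ifngr2 and Usf1 were the exceptions. The share of all genes that were highest in KL replicate 1 was not computed. Usf1, a factor that also acts on a Ciita promoter, had the order of the surface chains, at 24.0 and 27.5 FPKM in KL25 and at 20.4 and 32.8 FPKM in KL. Ifng, the cytokine itself, had values of 0 in both KL25 libraries and of 8.36 and 0.456 FPKM in KL. Irf1, a factor that binds the inducible Ciita promoter, was at 30.6 and 46.0 FPKM in KL25 and at 242 and 78.6 FPKM in KL. The kinase Jak1 was at 32.7 and 37.3 FPKM in KL25 and at 66.4 and 35.4 FPKM in KL. The receptor chains were even across libraries, with Ifngr1 at 69.7 to 87.1 FPKM and Ifngr2 at 33.1 to 42.7 FPKM. 0 of the 9 passed in limma (8 negative, median log2 fold change -0.46). Without KL replicate 1 Ifng fell below the level filter, and the median of the 8 genes still tested was -0.08.

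The factors that act on class II promoters and on Ciita did not pass either. All 7 listed promoter factors had a negative log2 fold change (median -0.34, 0 passed). Nfyc and Nfya, subunits of NF-Y, were the most abundant of them by mean FPKM. In 4 of the 7 (Nfyc, Nfya, Rfx5 and Rfxap) both KL25 values were below both KL values, against 15.0% of all genes tested. Nfyc was at 10.6 and 13.8 FPKM in KL25 and at 17.1 and 21.3 FPKM in KL. Nfya was at 1.02 and 11.2 FPKM in KL25 and at 18.0 and 14.0 FPKM in KL, so that its low value lay in KL25 replicate 1, as for Ciita. Nfyb, the third NF-Y subunit, was at 4.24 to 9.14 FPKM and Creb1, which encodes CREB, at 4.44 to 5.87 FPKM. Of the 5 lineage factors of Ciita 4 passed the level filter, all negative (median -0.50, 0 passed). Spi1, which encodes PU.1 of myeloid cells, was at 110 and 148 FPKM in KL25 and at 185 and 243 FPKM in KL. Irf8, a factor of dendritic cells and macrophages, was at 9.39 and 16.2 FPKM in KL25 and at 28.7 and 22.3 FPKM in KL (log2 fold change -0.98, SE 0.37, adjusted p = 0.942). Pax5, a B cell factor, was listed at 0 in all libraries except KL25 replicate 2 (0.629 FPKM). Irf4, a factor of lymphocytes and dendritic cells, was at 0.576 to 1.69 FPKM and Prdm1, a repressor of Ciita in plasma cells, at 5.67 to 8.27 FPKM.

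**Figure D3:**
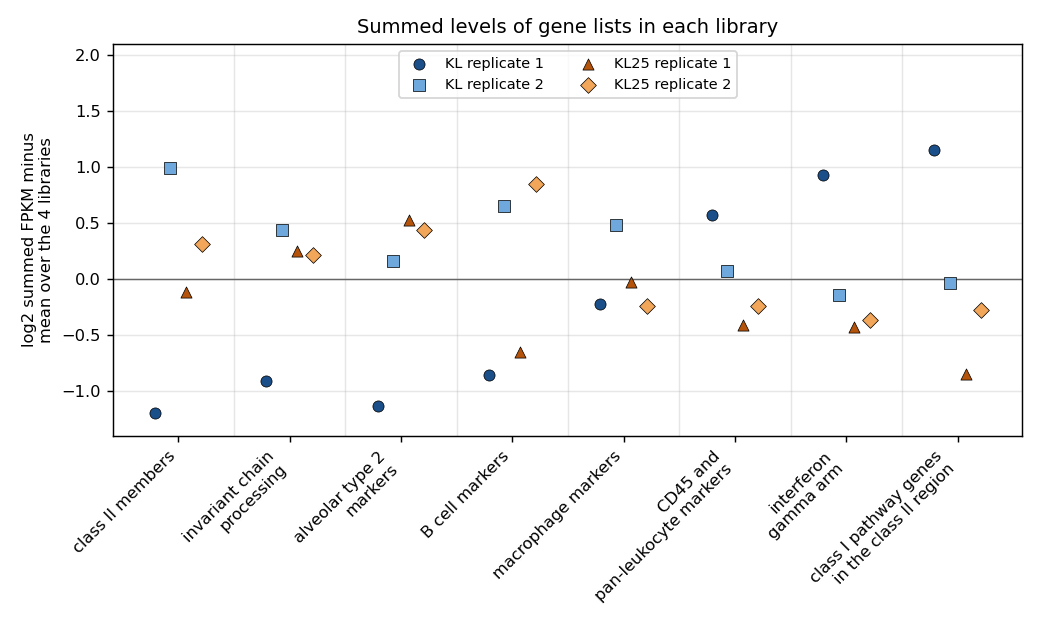
Summed FPKM of 8 gene lists in each library, as log2 with the mean over the 4 libraries subtracted; each point is 1 library. KL replicate 1 (dark blue circles) is lowest for the class II members, invariant chain processing genes, alveolar type 2 markers and B cell markers. It is highest for the pan-leukocyte markers, the interferon gamma arm and the class I pathway genes.

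Class I pathway genes in or beside the class II region were highest in the library where most class II genes of the region were lowest. H2-Oa, the H2-DM genes, H2-Ob, H2-Ab1, H2-Aa and H2-Eb1 lie on chromosome 17 between 34092340 and 34316674 (GRCm38, GENCODE M21). Psmb9, Tap1, Psmb8 and Tap2, which make and transport peptides for class I molecules, stand between H2-DMb1 and H2-Ob, and Tapbp, a class I loading factor, lies outside them. All 5 were highest in KL replicate 1 and lowest in KL25 replicate 1, and the share of all genes with that pattern was not computed. Tap1 was at 8.04 and 14.3 FPKM in KL25 and at 81.7 and 17.1 FPKM in KL. Its KL replicate 1 was the high library by far, whereas H2-DMb1, H2-Ab1 and H2-Aa were at their lowest there. Psmb8 was at 59.0 and 82.3 FPKM in KL25 and at 150 and 93.0 FPKM in KL. Tap2, Psmb9 and Tapbp peaked in KL replicate 1 at 51.3, 151 and 162 FPKM, and were at 22.3, 48.6 and 54.4 FPKM or less in KL25. In KL replicate 2 they were at 31.3, 72.4 and 47.5 FPKM, so that the groups overlapped for Tapbp. The 5 had a median log2 fold change of -1.17, and 0 passed in limma. Psmb9 and Tap1 overlap on opposite strands, and the strand setting of the counting is not stated in the labels. Cd74 lies on chromosome 18 and Ciita on chromosome 16, apart from this region. H2-Eb2, a further class II gene of the region, was at 0.550 FPKM or less, H2-Ea-ps was listed at 0 except in KL replicate 1 (0.290 FPKM), and H2-Ea was not matched by symbol.

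**Figure D4:**
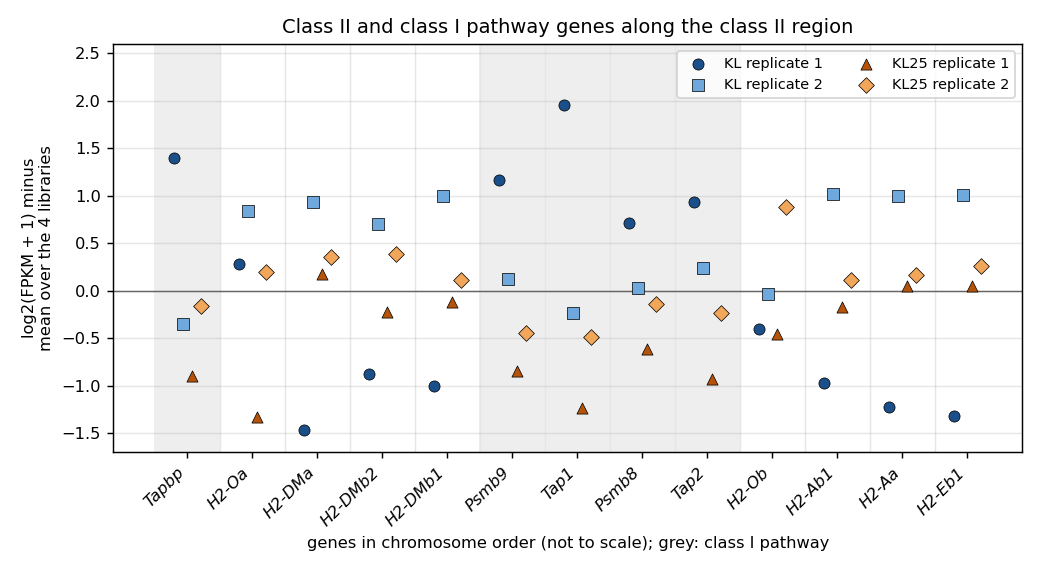
Level of each gene in each library as log2(FPKM + 1) with its mean over the 4 libraries subtracted, for 13 genes in chromosome order (spacing not to scale), class I pathway genes on grey. KL replicate 1 (dark blue circles) is highest at all 5 class I pathway genes and lowest at 6 of the 8 class II genes.

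Markers of cell types that carry class II molecules differed in which library was highest. Macrophage markers summed to 1312 and 1129 FPKM in KL25 and to 1145 and 1858 FPKM in KL, with none of 10 listed at 0. The lysosomal protein gene Cd68 was the most abundant of them, at 331 and 482 FPKM in KL25 and at 333 and 874 FPKM in KL. The scavenger receptor gene Mrc1 was even, at 149 to 193 FPKM. The complement gene C1qb was at 279 and 135 FPKM in KL25 and at 131 and 252 FPKM in KL. C1qa and C1qc, its partners, were also lowest in KL replicate 1, but C1qb and C1qc were highest in KL25 replicate 1 and C1qa in KL replicate 2. Adgre1, which encodes F4/80, was at 72.5 and 76.5 FPKM in KL25 and at 142 and 110 FPKM in KL. Marco was at 141 and 39.3 FPKM in KL25 and at 170 and 56.2 FPKM in KL. Csf1r was at 47.3 and 48.0 FPKM in KL25 and at 96.2 and 52.8 FPKM in KL. These 3 were highest in KL replicate 1, where class II was lowest, while 5 of the 10 macrophage markers were lowest there. Dendritic cell markers summed to 110 and 165 FPKM in KL25 and to 114 and 224 FPKM in KL. Most of that was Itgax, which macrophages share, while Clec9a of cross-presenting dendritic cells was at 1.31 to 2.26 FPKM. Siglech, of plasmacytoid dendritic cells, was listed at 0 in KL25 replicate 1 and KL replicate 2. Of these lists 0 members passed, with median log2 fold changes of -0.26 for 10 tested macrophage and 0.03 for 5 tested dendritic cell markers.

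Of 5 B cell markers tested 4 were highest in KL25 replicate 2, as H2-Ob was, and the share over all genes was not computed. The other, Cd22, was highest in KL replicate 2, at 28.1 FPKM. The listed markers summed to 14.9 and 42.1 FPKM in KL25 and to 12.9 and 36.6 FPKM in KL, with 7 of 8 in the table. Ms4a1, which encodes CD20, and Blk were listed at 0 in KL25 replicate 1. Cd79a, of the B cell receptor, was at 1.56 and 8.06 FPKM in KL25 and at 1.70 and 1.88 FPKM in KL, and Cd79b, its partner, at 2.32 and 7.21 FPKM in KL25 and at 0.885 and 2.86 FPKM in KL. The ratio of H2-Ob to Cd79a was 0.520 and 0.441 in KL25 and 0.514 and 0.757 in KL. H2-Oa did not share this order and was highest in KL replicate 2. Of the 5 markers tested 0 passed (median log2 fold change 0.62), and their part in the levels of H2-Ob was not tested.

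**Figure D5:**
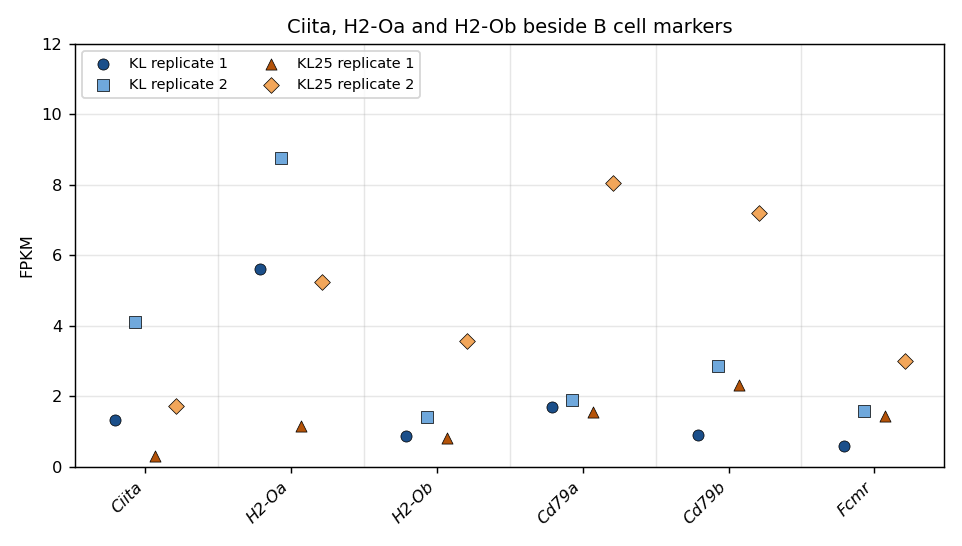
FPKM of Ciita, H2-Oa and H2-Ob and of 3 B cell markers in each library; each point is 1 library. H2-Ob and the 3 markers shown (Cd79a, Cd79b and Fcmr) are highest in KL25 replicate 2 (light orange diamonds). Ciita and H2-Oa are highest in KL replicate 2 (light blue squares), as is the B cell marker Cd22, which is not shown.

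Markers of other cells also varied, and their part in the class II levels was not tested. Alveolar type 2 markers summed to 5100 and 4802 FPKM in KL25 and to 1610 and 3970 FPKM in KL (0 of 9 passed, median log2 fold change 0.23). Most of each sum came from the surfactant genes Sftpc and Sftpb, and the median marker was at 74.8 and 109 FPKM in KL25 and at 60.7 and 62.8 FPKM in KL. Napsa, the gene of an aspartic protease of those cells, was at 41.6 and 69.6 FPKM in KL25 and at 60.7 and 61.1 FPKM in KL. Sftpc, the surfactant gene that marks those cells, was at 1376 and 2596 FPKM in KL25 and at 339 and 2347 FPKM in KL. Neutrophil markers summed to 40824 FPKM in KL replicate 1 and to 718 to 2076 FPKM in the others (0 of 7 passed, median -1.25). Pan-leukocyte markers summed to 1306 and 1474 FPKM in KL25 and to 2577 and 1829 FPKM in KL (0 of 8 passed, median -0.72). T cell markers summed to 48.5 and 65.6 FPKM in KL25 and to 20.1 and 77.6 FPKM in KL (0 of 5 passed, median 0.32). Most of each sum was Cd2, and the T cell receptor chain Cd3d was at 2.42 to 3.20 FPKM. Epithelial markers summed to 3488 and 1294 FPKM in KL25 and to 909 and 758 FPKM in KL (0 of 7 passed, median 1.35). Endothelial markers summed to 49.5 to 136 FPKM (0 of 5 passed, median -0.34) and fibroblast markers to 43.8 to 118 FPKM (0 of 6 passed, median 0.61).

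The genes with the most similar pattern were found by their distance from the mean profile of H2-Aa, H2-Ab1, H2-Eb1 and Cd74. The distance was the root mean square difference of log2(FPKM + 1) values over the 4 libraries, each gene centred on its own mean. Among 5179 genes averaging 10 FPKM or more the nearest were Cxcr1 (distance 0.076), Pld3 (0.104), Ctsf (0.105), Sulf2 (0.105) and Lgals1 (0.106). Cxcr1, a chemokine receptor gene, was at 42.8 and 57.8 FPKM in KL25 and at 19.7 and 84.7 FPKM in KL. Pld3, a gene of a lysosomal exonuclease, was at 397 and 508 FPKM in KL25 and at 155 and 773 FPKM in KL. H2-Aa, H2-Ab1, H2-Eb1 and Cd74 were themselves up to 0.136 from their mean profile, and 11 other genes were as near. H2-DMb1 was at 0.114, H2-DMa at 0.196 and H2-DMb2 at 0.241. Ciita (0.697), H2-Ob (0.747) and H2-Oa (0.971) were far from it. Likeness over 4 libraries is given as a description only.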

How the data were processed

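Poly(A) RNA of 4 samples (2 KL, 2 KL25) was sequenced with a stranded kit, trimmed with cutadapt, aligned to GRCm38 and counted per gene with HTSeq, per the labels' protocols. The submitters' processing notes list GRCm38 and GRCm39. No source used here gives the aligner, tool versions or strand setting. The authors deposited 1 value per gene and library, taken as FPKM because the values are not whole and total 526632 to 565613; their header names no unit. Per the file headers, the authors also deposited a mean normalized count signal (sum 10564266 over the genes used), a log2 fold change, its standard error and a test score, a p-value, an adjusted p-value and a call in words; the adjusted p-value is NA for 6653 of 21445 genes. Where a gene was seen in 1 library its mean is a whole multiple of a step (100% of such genes, within 0.01), and the step gave the size factor; reads per gene were not recovered from FPKM. The replicate spread is between libraries only.

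The 25 gene names turned into dates were left out. Under R 4.3.3, limma 3.58.1 with its trend option was fitted to log2(FPKM + 1), KL25 against KL, without covariates, over genes whose mean reached 1 FPKM in a group, and was tested on simulated data. This scale understates changes of low genes. The members and gene lists were chosen with earlier results of these data known. Named genes were the 10 members, up to 4 of the most abundant genes of each list (all of a list of 5), and the 5 nearest in pattern. Ifng, Usf1, Rfx5, Rfxap, C1qa, C1qc, Adgre1, Csf1r, Siglech, Napsa, Ms4a1 and Blk were named after their values were seen. Values of some listed genes are not reported here. Positions are from GENCODE M21 (GRCm38), promoters from RefSeq (GRCm38.p6). Alternatives were the pseudocount (0.1 and 5), the filter, scaling, the replicate number as a block and leaving out each library. A second copy of the table and one with only a title were not used here.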

Additional observations from a re-analysis of the deposited data

How the results depend on the processing

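In every alternative that kept all 4 libraries, 0 genes and 0 class II genes were called by limma. In these 371 to 625 genes had an unadjusted p below 0.05, against 403 in the main fit. The median log2 fold change of the 10 class II genes was 0.19 with all 4 libraries, 0.21 and 0.15 with pseudocounts of 0.1 and 5, 0.19 with either other filter and 0.16 after rescaling, and ranged from -0.89 to 0.98 when 1 library was left out. H2-DMb1 was near 0 and changed sign with a pseudocount of 5 (-0.011) and after rescaling (-0.029), as did 8 genes when 1 library was left out: H2-Aa ranged from -0.89 to 1.33, H2-Ab1 from -1.04 to 0.95, H2-Eb1 from -0.85 to 1.48, Cd74 from -0.88 to 1.36, H2-DMa from -0.67 to 1.73, H2-DMb1 from -1.0 to 1.01, H2-DMb2 from -0.62 to 0.96 and H2-Ob from -0.23 to 1.10. With a library left out its group has 1 sample, assumed to vary as the other group does. The deviations of same-numbered libraries correlated at 0.15 across 12476 genes, and nothing in the labels says that the numbers mark a pair. With the replicate number as a block the median was again 0.19, 0 genes were called, 625 had an unadjusted p below 0.05, and of the 10 genes only H2-Oa did. The low counts behind Ciita, H2-Oa and H2-Ob limit what can be read from them.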

Other observations

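Co-stimulation genes and T cell receptors of class II molecules did not follow the class II genes. Cd80, a ligand of CD28 on antigen-presenting cells, was at 10.4 and 11.1 FPKM in KL25 and at 48.9 and 9.75 FPKM in KL. Cd40, the receptor through which T cells activate such cells, was at 0.962 and 2.84 FPKM in KL25 and at 13.0 and 3.53 FPKM in KL. Both were highest in KL replicate 1, where the surface chains were lowest. Cd86, the other CD28 ligand, was at 12.4 to 17.3 FPKM without a high library. Cd4, the co-receptor that binds class II, was at 0.959 and 0.820 FPKM in KL25 and at 1.86 and 1.70 FPKM in KL, and Lag3, an inhibitory receptor for class II, at 2.75 and 1.06 FPKM in KL25 and at 0.621 and 0.778 FPKM in KL. In Cd40 and Cd4 both KL25 values were below both KL values (15.0% of all genes tested), and in Lag3 both were above (19.1%). 0 of the 5 passed in limma (median log2 fold change -0.56).

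The ratio of H2-Ob to H2-Oa, the chains of one heterodimer, was nearly equal within each group. It was 0.695 and 0.679 in KL25 and 0.155 and 0.162 in KL, a 4.33-fold difference. It was singled out after its values were seen, among 45 pairs of class II genes, of which 21 had ratios that did not overlap between the groups. The pairs reuse the same genes, and the share over pairs of all genes was not computed. No result about the class II genes is drawn from that count. Both genes rest on few reads, and no test of 2 against 2 libraries was made on it.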
